A study of Homo sapiens with 6 samples.

Results

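The 5 protein-coding genes of the human beta-globin cluster, HBE1, HBG2, HBG1, HBD and HBB, were followed through 6 RNA sequencing libraries of K562, an established erythroleukaemia cell line. They were taken by gene symbol from 33367 genes to which the deposited transcript estimates could be summed. The series asked how depletion of CDAN1, a gene mutated in a congenital dyserythropoietic anaemia, alters the transcriptome. The libraries labelled as CDAN1 knockdown came from 2 clones, c1 and c2, that carried a CDAN1 short hairpin RNA (shRNA) and received doxycycline at 1 µg/ml. The 4 controls were the same c1 and c2 clones without doxycycline and a clone with a non-targeting shRNA (NT) with and without doxycycline. All cultures were kept under puromycin at 2 µg/ml and taken at day 4. Every clone and doxycycline state was represented by 1 library, and each of c1, c2 and NT is treated here as 1 clone. The labels name no further cultures, and every p-value therefore rests on how much 6 single libraries varied. In bulk RNA, fewer cells expressing a globin and less globin RNA per cell cannot be told apart.

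Haemoglobin is a tetramer of alpha-type and beta-type chains, and the beta-type chain is exchanged during development. HBE1 encodes the embryonic epsilon chain of yolk sac red cells, HBG1 and HBG2 encode the A-gamma and G-gamma chains of fetal haemoglobin, HBD encodes the delta chain of the minor adult haemoglobin, and HBB encodes the beta chain of the major adult haemoglobin. The genes lie in the order of their use along the chromosome and share an upstream enhancer, the locus control region, which contacts 1 gene at a time. K562 cells are known for an embryonic and fetal globin programme with very little adult beta-type globin.

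All 5 genes lie on the minus strand of chromosome 11. Coordinates are those of GENCODE 29 on GRCh38. HBB (ENSG00000244734) spans 5225464 to 5229395, HBD (ENSG00000223609) spans 5232678 to 5243657 and HBG1 (ENSG00000213934) spans 5248079 to 5249859. HBG2 (ENSG00000196565) spans 5253190 to 5505605 and HBE1 (ENSG00000213931) spans 5268345 to 5505652, because some of their annotated transcripts start far upstream, across several olfactory receptor genes. OR51B5 has its start at the same annotated position as HBE1, and HBBP1 lies inside the annotated span of HBD, so reads in the shared stretches are divided by estimate. Every member has a coding sequence of 444 bases. HBG1 and HBG2 share 99.55% of these bases, HBD and HBB share 92.79%, and HBE1 shares 83.56% with either gamma gene. Identity in the other pairs lay between 76.13% and 79.05%.

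The gamma genes differ at 2 coding bases, C227T and C410G, written as the HBG1 base, the position counted from the A of the start codon and the HBG2 base. Short reads can be given to HBG1 or HBG2 only where the sequences differ, and the windows show where the coding sequences do. The transcripts also differ outside the coding sequence, which the windows do not show. The windows are 29 bases long, in the sense of the transcript, with the differing base in capitals:
HBG1 chr11:5249442-5249470: cttgggagatgccaCaaagcacctggatg
HBG2 chr11:5254366-5254394: cttgggagatgccaTaaagcacctggatg
HBG1 chr11:5248379-5248407: gaagatggtgactgCagtggccagtgccc
HBG2 chr11:5253297-5253325: gaagatggtgactgGagtggccagtgccc
The second difference is known as the base that gives the A-gamma and G-gamma chains their names. Of the 31-base words in the main transcript of each gene, 97.6% of those of HBE1, 85.3% of those of HBD and 81.6% of those of HBB were found in no other member's main transcript. That share was 42.6% for HBG1 and 26.4% for HBG2. The division of reads between the gamma genes is therefore an estimate, and their sum is given beside them.

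The 6 libraries held between 28318555 and 32352246 estimated reads, and 14075 genes passed the filter on low counts, all 5 members among them. CDAN1 stood at 17.0 and 29.8 CPM (estimated reads scaled to the library total) in induced c1 and c2, against 37.0, 55.4, 70.2 and 62.5 CPM in uninduced c1, uninduced c2, induced NT and uninduced NT. The knockdown libraries lay below all 4 controls, but uninduced c1 also lay below the other 3. Erythroid markers, which include 3 of the members, summed to between 24270 and 33019 TPM (abundance scaled for transcript length and library total). Granulocyte and monocyte markers summed to between 57.3 and 85.8 TPM, nearly all of it from LYZ at 57.0 to 84.6 TPM. Of the others in that list, MPO, CD14 and CSF1R stood at no more than 1.17 TPM and ELANE at 0. Lymphoid markers summed to between 0.665 and 2.15 TPM, with MS4A1 at 0. Megakaryocyte markers summed to 6.83 and 96.7 TPM in induced c1 and c2, and to 8.75, 110, 19.5 and 23.3 TPM in uninduced c1, uninduced c2, induced NT and uninduced NT. They differed by clone, and their part in the clone differences of the globins was not tested.

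Beta-type globin RNA was embryonic and fetal in every library. HBG2 was the highest in TPM, followed by HBE1, HBG1, HBD and HBB, and this order held in all 6 libraries. Summed over the 5 genes, the level was 26584 and 23480 TPM in induced c1 and c2, against 26194 TPM in uninduced c1, 21554 in uninduced c2, 28104 in induced NT and 25762 in uninduced NT. These sums took between 0.785% and 1.08% of the estimated reads of a library. Both c2 libraries had the lowest sums, and the knockdown libraries overlapped the controls.

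**Figure D1:**
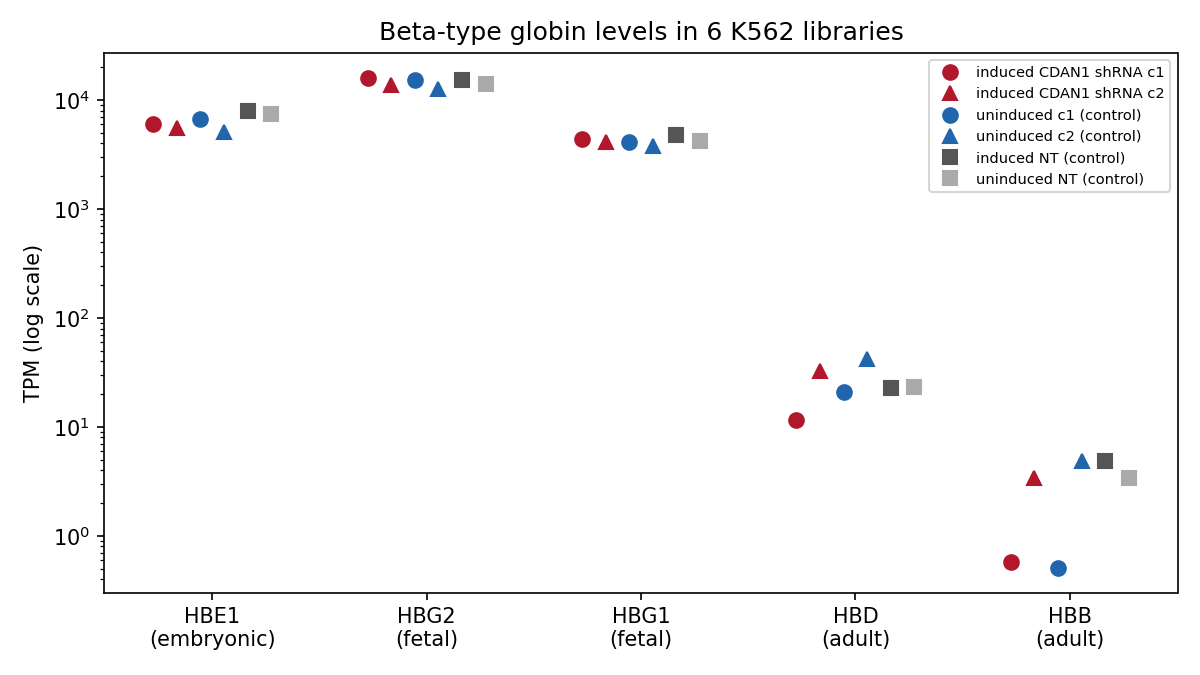
Level of each beta-type globin gene in TPM (log axis) in the 6 libraries, with colour for the group and marker shape for the clone. HBG2, HBE1 and HBG1 lie at or above 3769 TPM in every library, while HBD lies between 11.5 and 41.7 TPM and HBB below 5 TPM, with both c1 libraries below 1 TPM.

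The embryonic gene HBE1 stood at 6051 TPM in induced c1 and 5566 TPM in induced c2, against 6680 TPM in uninduced c1, 5134 in uninduced c2, 7992 in induced NT and 7439 in uninduced NT. Both NT libraries were the highest and both c2 libraries the lowest. The order followed the clone and not the doxycycline state.

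The fetal gene HBG2 stood at 16132 TPM in induced c1 and 13757 TPM in induced c2, against 15406 TPM in uninduced c1, 12605 in uninduced c2, 15303 in induced NT and 14048 in uninduced NT. Its copy HBG1 stood at 4389 TPM in induced c1 and 4121 TPM in induced c2, against 4087 TPM in uninduced c1, 3769 in uninduced c2, 4782 in induced NT and 4248 in uninduced NT. Induced c1 was the highest of the 6 libraries for HBG2 and lay within the controls for HBG1, induced c2 lay within them for both genes, and uninduced c2 was the lowest library for both. HBG2 exceeded HBG1 by 3.68 and 3.34 times in TPM in induced c1 and c2, and by 3.77, 3.34, 3.20 and 3.31 times in uninduced c1, uninduced c2, induced NT and uninduced NT. By estimated reads the ratio was 2.30 and 2.10 in induced c1 and c2, and 2.39, 2.10, 2.01 and 2.08 in those controls. The 2 c1 libraries had the highest ratios on both scales, which rest on how the estimates divided shared reads and, for TPM, on the transcript lengths in the tables.

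Of the adult genes, HBD stood at 11.5 TPM in induced c1 and 32.3 TPM in induced c2, against 20.8 TPM in uninduced c1, 41.7 in uninduced c2, 22.5 in induced NT and 23.3 in uninduced NT. These levels came from 170 and 438 estimated reads in the knockdown libraries and from 272, 569, 291 and 308 in the controls, in the same order. Within each clone the induced library had the lower level.

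HBB, the major adult gene, stood at 0.577 TPM in induced c1 and 3.39 TPM in induced c2, against 0.505 TPM in uninduced c1, 4.91 in uninduced c2, 4.85 in induced NT and 3.40 in uninduced NT. It was carried by 6 and 34 estimated reads in induced c1 and c2, and by 5, 47, 44 and 32 reads in those controls. Both c1 libraries were far below the other 4, whose levels lay close together.

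Most reads of each gene were assigned to 1 transcript. HBE1-201 (ENST00000292896) held between 90.3% and 93.1% of the TPM of HBE1 over the 6 libraries, HBE1-202 between 5.69% and 7.54%, and HBE1-203 between 0.914% and 2.21%. HBG2-201 held between 98.0% and 98.3% of the TPM of HBG2, HBG2-202 between 1.45% and 1.88%, and HBG2-203 at most 0.278%. HBG1 was represented by HBG1-201 alone. HBD-202, which starts further upstream than HBD-201 in GENCODE 29, held between 87.8% and 100% of the TPM of HBD, while HBD-201 held at most 11.2% and HBD-203 was listed at 0. HBB-201 held between 95.5% and 100% of the TPM of HBB, HBB-204 at most 4.51%, and HBB-202 and HBB-203 were listed at 0. HBE1-202 took 7.32% and 6.56% in induced c1 and c2, against 5.69%, 7.54%, 6.85% and 6.39% in uninduced c1, uninduced c2, induced NT and uninduced NT, so the groups overlapped. In GENCODE 29, HBE1-201, HBE1-202 and HBG2-202 have a first exon far upstream of their coding exons. Lengths of several members' transcripts in the deposited tables differ from GENCODE 29 (HBE1-201 has 827 bases in the tables and 918 in GENCODE 29), so their structures in the authors' annotation may also differ. The share of HBE1-201 thus does not show where HBE1 RNA starts.

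The share of each developmental class was computed from summed TPM. Embryonic HBE1 made up 22.8% and 23.7% of beta-type globin in induced c1 and c2, against 25.5%, 23.8%, 28.4% and 28.9% in uninduced c1, uninduced c2, induced NT and uninduced NT. The fetal pair made up 77.2% and 76.1% in induced c1 and c2, against 74.4%, 76.0%, 71.5% and 71.0% in those controls. The adult pair made up 0.0453% and 0.152% in induced c1 and c2, against 0.0813%, 0.216%, 0.0974% and 0.104%. Fetal and embryonic shares of the knockdown libraries lay just outside the range of the controls, next to uninduced c2.

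The embryonic share averaged 23.2% ± 0.666 in knockdown libraries (SD, n = 2) and 26.7% ± 2.41 in controls (SD, n = 4), a difference of -3.42 percentage points (two-sided exact permutation test, p = 0.133). For the fetal share, the averages were 76.7% ± 0.741 (SD, n = 2) and 73.2% ± 2.37 (SD, n = 4), a difference of 3.45 points (exact permutation p = 0.133). The adult share averaged 0.0987% ± 0.0754 in knockdown libraries and 0.125% ± 0.0619 in controls, a difference of -0.0261 points (exact permutation p = 0.667). None of the 3 differences passed the threshold of 0.05, which 2 libraries against 4 cannot reach, as the smallest p among the 15 arrangements is 0.0667. These arrangements take the 6 libraries as exchangeable and leave out that each clone gave 2 of them. By clone, the embryonic share was 24.1% ± 1.94 in c1, 23.8% ± 0.0789 in c2 and 28.7% ± 0.310 in NT (SD, n = 2 each). The embryonic share was lower in the induced than in the uninduced library of all 3 clones, NT included, by under 1 percentage point in c2 and NT and by more in c1. Both NT libraries, which are controls, had the highest embryonic shares.

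**Figure D2:**
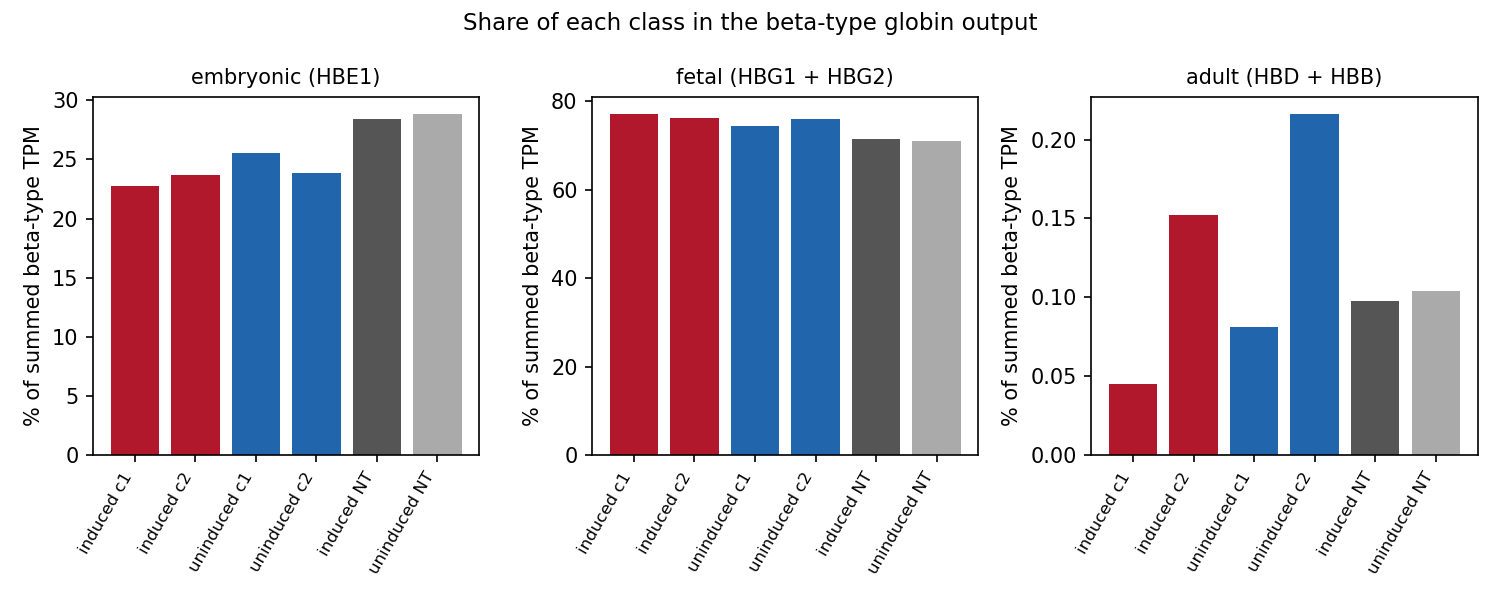
Percent of summed beta-type globin TPM from the embryonic gene HBE1, the fetal genes HBG1 and HBG2, and the adult genes HBD and HBB, as 1 bar per library, each panel with its own axis starting at 0. The fetal share lies between 71.0% and 77.2%, lowest in both NT libraries, and the adult share does not exceed 0.216%.

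Knockdown against all 4 controls was the comparison named in the series design. No member passed the test there, and nor did any other gene: the quasi-likelihood test of edgeR, with Benjamini-Hochberg adjustment and a threshold of 0.05, gave 0 calls among 14075 genes (0%), with 322 genes at an unadjusted p under 0.05. DESeq2 called 14 genes and limma's voom called 0. With the clone as a replicate block, edgeR called 6 genes (0.0426%), none of them a member. In that fit the NT libraries add to the estimate of the spread but not to the fold changes. Those fold changes compare induced with uninduced c1 and c2. Knockdown and control libraries did not overlap in CPM for 9.56% of genes, and no member was among these.

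For HBE1 the log2 fold change of knockdown over controls was -0.25 ± 0.19 (SE) from 3208 and 2845 CPM in induced c1 and c2, against 3573, 2590, 4206 and 4039 CPM in uninduced c1, uninduced c2, induced NT and uninduced NT. HBG2 had a log2 fold change of 0.04 ± 0.13, HBG1 of -0.01 ± 0.11 and their sum of 0.03 ± 0.12. HBD had one of -0.36 ± 0.44 and HBB of -0.80 ± 0.98. The HBB value was -0.044 without induced c1, -2.52 without induced c2 and -1.31 with a doxycycline term. In the fit without a further term the adjusted p was 1.00 for each member, and the SEs of HBD and HBB exceeded their differences. Over the 5 members the median was -0.25, beside -0.000744 over all genes tested.

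HBD was the member whose estimate gained most in precision from the block. Its log2 fold change was -0.59 ± 0.14 with the clone as replicate block (unadjusted p = 0.00288, adjusted p = 0.222 in edgeR). This value compares induced with uninduced c1 and c2 and leaves out the level of NT. HBD did not pass the threshold in any of the alternatives, where the adjusted p lay between 0.222 and 1.00. In the same blocked fit HBE1 had -0.01 ± 0.08, HBG2 0.09 ± 0.06, HBG1 0.12 ± 0.06 and HBB -0.33 ± 0.45. Leaving out induced c1 gave HBD a log2 fold change of 0.17 without the block, the opposite sign.

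Induction by doxycycline within a clone compares 1 library with 1, so it is given as a percentage of the uninduced level with a 95% interval that covers counting error only. For HBE1 this percentage was 89.8% in c1 (interval 89.0% to 90.6%), 109.8% in c2 (interval 108.8% to 110.9%) and 104.1% in NT (interval 103.3% to 105.0%). The response of HBE1 in c1 had the opposite direction to that in c2 and NT.

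For HBG2, induced c1 was at 102.6% (interval 101.9% to 103.4%), 110.6% in c2 (interval 109.7% to 111.5%) and 105.0% in NT (interval 104.2% to 105.8%). HBG1 was at 106.4% in c1 (interval 105.2% to 107.5%), 110.8% in c2 (interval 109.5% to 112.1%) and 108.9% in NT (interval 107.7% to 110.1%). Both gamma genes were slightly higher in the induced library of all 3 clones, NT included, as were 17.8% of all genes tested.

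For HBD, induced c1 was at 58.5% (interval 48.0% to 71.1%), 74.5% in c2 (interval 65.6% to 84.6%) and 94.0% in NT (interval 79.8% to 110.7%). It was lower in the induced library of all 3 clones, as were 20% of all genes tested, and the interval for NT included 100%. The HBB response could not be told from 100% at this depth in any clone: 112.3% in c1 (interval 28.6% to 465%), 70.0% in c2 (interval 43.7% to 111%) and 136.9% in NT (interval 84.8% to 223%).

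**Figure D3:**
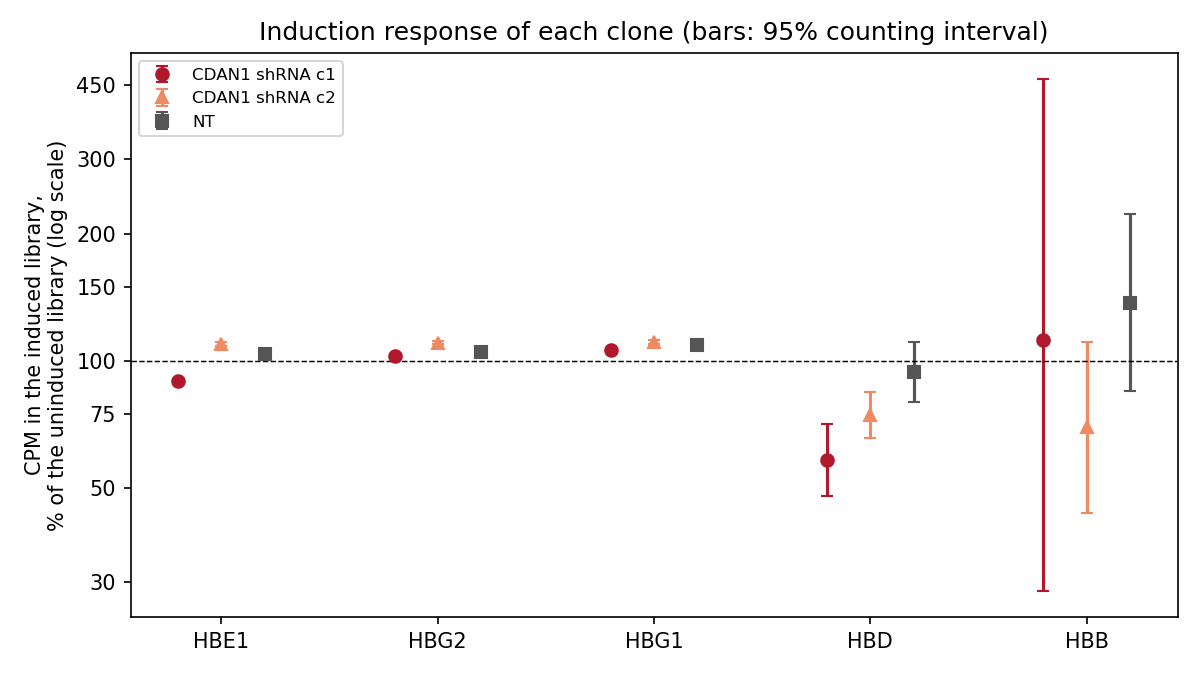
CPM in the induced library as a percent of the uninduced library (log axis) for each beta-type globin gene in c1, c2 and NT, with bars for the 95% counting interval and a dashed line at 100%. HBG1 and HBG2 lie at 102.6% to 110.8% in all 3 clones, and HBD lies below 100% with its lowest value, 58.5%, in c1.

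Induced against uninduced CDAN1 shRNA clones, 2 libraries a side, showed no call among the members. The unblocked edgeR test called 0 of 14075 genes (0%), with 207 at an unadjusted p under 0.05, while DESeq2 called 2 and voom 0. With the clone as replicate block, edgeR called 141 genes (1%), again without a member. Its fold changes repeat the blocked contrast of knockdown against controls, with a separate term for NT, and are not a second result. In that blocked fit HBD had a log2 fold change of -0.58 ± 0.14 (unadjusted p = 0.00213, adjusted p = 0.109), from 5.62 and 14.5 CPM in the induced libraries of c1 and c2, against 9.61 and 19.5 CPM in the uninduced ones. The same difference had an adjusted p of 1.00 with DESeq2 and 0.150 with voom under the block, and of 1.00 without the block, within a range of 0.109 to 1.00 over all alternatives. The blocked estimates were -0.01 ± 0.07 for HBE1, 0.09 ± 0.06 for HBG2 (adjusted p = 0.571), 0.12 ± 0.06 for HBG1 (adjusted p = 0.437) and -0.33 ± 0.47 for HBB.

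The difference between the response of the CDAN1 shRNA clones and that of NT was also tested. Neither fit called a member: without the block edgeR called 0 of 14075 genes (0%), with 79 at an unadjusted p under 0.05, 5 by DESeq2 and 0 by voom, and with the block it called 19 (0.135%). For HBD the blocked difference of responses was -0.50 ± 0.24 on the log2 scale (unadjusted p = 0.0711, adjusted p = 1.00 in edgeR). It was -0.07 ± 0.13 for HBE1, 0.02 ± 0.10 for HBG2, -0.00 ± 0.10 for HBG1 and -0.78 ± 0.73 for HBB. A lower HBD level on induction was thus not shown to differ between the CDAN1 shRNA clones and NT.

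Levels were also compared between clones. Each clone was represented by its induced and its uninduced library, and a fit with 3 clones tested the pairs, which speaks of these clones only. The comparisons of c1 and of c2 with NT share the NT libraries.

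In c1 against NT, 2 of the 5 members passed the test, HBE1 and HBB, both lower, where 20.7% of all 14075 genes were called. In CPM, 4 of the 5 did not overlap between the clones, all but HBG1, beside 61.2% of all genes. HBB averaged 0.188 ± 0.0154 CPM in c1 and 1.43 ± 0.314 CPM in NT (SD, n = 2 each), 13.1% of the NT level. Its log2 fold change was -2.90 ± 0.45 (edgeR adjusted p = 0.00449), and the adjusted p lay between 0.000447 and 0.0323 over all alternatives. The 6 and 5 reads of HBB in the c1 libraries limit the precision of this fold.

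HBE1 averaged 3390 ± 258 CPM in c1 and 4123 ± 118 CPM in NT (SD, n = 2 each), a log2 fold change of -0.28 ± 0.07 (edgeR adjusted p = 0.0311). The call was lost on leaving out induced c1 (log2 fold change -0.21, adjusted p = 0.0828), induced NT (-0.26, 0.137) or uninduced NT (-0.31, 0.0939), within a range of 0.00355 to 0.137 over all alternatives. HBG2 (log2 fold change 0.11 ± 0.06, adjusted p = 0.277) and HBG1 (-0.09 ± 0.07, adjusted p = 0.408) did not pass, nor did their sum (0.04 ± 0.07).

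HBD averaged 7.61 ± 2.82 CPM in c1 and 11.3 ± 0.489 CPM in NT (SD, n = 2 each), a log2 fold change of -0.57 ± 0.25 (edgeR adjusted p = 0.155). It passed with doxycycline as a block (-0.60 ± 0.17, adjusted p = 0.0369) and without uninduced c1 (-1.001, adjusted p = 0.0289), and the range over all alternatives was 0.0289 to 0.461. With doxycycline as a block, 27.8% of all genes were called.

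In c2 against NT, HBE1 and HBG1 passed the test, both lower, where 15.1% of all genes were called. In CPM, 4 of the 5 did not overlap, all but HBB, beside 62.6% of all genes. HBE1 averaged 2718 ± 180 CPM in c2 and 4123 ± 118 CPM in NT (SD, n = 2 each), 65.9% of the NT level. Its log2 fold change was -0.60 ± 0.07 (edgeR adjusted p = 0.00186), and the adjusted p lay between 1.58e-11 and 0.0250 over all alternatives. HBE1 was thus lower than in NT in both libraries of both other clones.

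HBG1 averaged 1936 ± 140 CPM in c2 and 2321 ± 140 CPM in NT (SD, n = 2 each), a log2 fold change of -0.26 ± 0.07 with an adjusted p of 0.0492 in edgeR. This call lay at the threshold and was lost with DESeq2's size factors (-0.25, adjusted p = 0.0543) and on leaving out induced c2 (-0.33, 0.104), uninduced c2 (-0.18, 0.339), induced NT (-0.20, 0.281) or uninduced NT (-0.33, 0.0841). Over all alternatives the adjusted p of HBG1 lay between 0.00785 and 0.339.

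HBG2 lay on the other side of the same threshold, at 4071 ± 290 CPM in c2 and 4737 ± 164 CPM in NT (SD, n = 2 each), with a log2 fold change of -0.22 ± 0.06 and an adjusted p of 0.0573 in edgeR. It passed with DESeq2 (adjusted p = 0.0261), voom (0.0350), no filter on low counts (0.0429), doxycycline as a block (0.0196), and without uninduced c1 (-0.22, 0.0435) or induced c1 (-0.22, 0.0456), and the range was 0.0196 to 0.401. Summed, the gamma genes had a log2 fold change of -0.23 ± 0.07 (adjusted p = 0.0514).

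Neither adult gene was called between c2 and NT. HBD averaged 17.0 ± 3.51 CPM in c2 and 11.3 ± 0.489 CPM in NT (SD, n = 2 each), a log2 fold change of 0.60 ± 0.25 (edgeR adjusted p = 0.151). It passed with doxycycline as a block (0.58 ± 0.17, adjusted p = 0.0466), where 21.1% of genes were called, and without induced c1 (0.59, 0.0496), within a range of 0.0466 to 0.527. HBB averaged 1.37 ± 0.341 CPM in c2, with a log2 fold change over NT of -0.06 ± 0.36 (adjusted p = 0.932).

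In c2 against c1, 4 of the 5 members passed the test, 2 higher and 2 lower, where 20.3% of all genes were called. In CPM, all 5 did not overlap, beside 60.2% of all genes. The adult genes were higher in c2: HBB by a log2 fold change of 2.84 ± 0.45 (edgeR adjusted p = 0.00408, range 0.000553 to 0.0319 over all alternatives) and HBD by 1.16 ± 0.25 (adjusted p = 0.0153, range 0.000269 to 0.0971). The HBD call was lost without uninduced c2 (log2 fold change 0.95, adjusted p = 0.0971). HBE1 was lower in c2 by a log2 fold change of -0.32 ± 0.07 (adjusted p = 0.0190, range 0.00139 to 0.179), a call lost without induced c2 (-0.37, 0.0542), uninduced c2 (-0.24, 0.179) or uninduced c1 (-0.25, 0.0562). HBG2 was lower by -0.33 ± 0.06 (adjusted p = 0.0105, range 0.000189 to 0.137), a call lost without uninduced c2 (-0.24, 0.137). HBG1 had -0.17 ± 0.07 (adjusted p = 0.145) and passed with doxycycline as a block (-0.17, 0.0341; 26.8% of genes called), within a range of 0.0341 to 0.660. The embryonic and fetal genes thus had the opposite sign to the adult genes between these 2 clones.

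**Figure D4:**
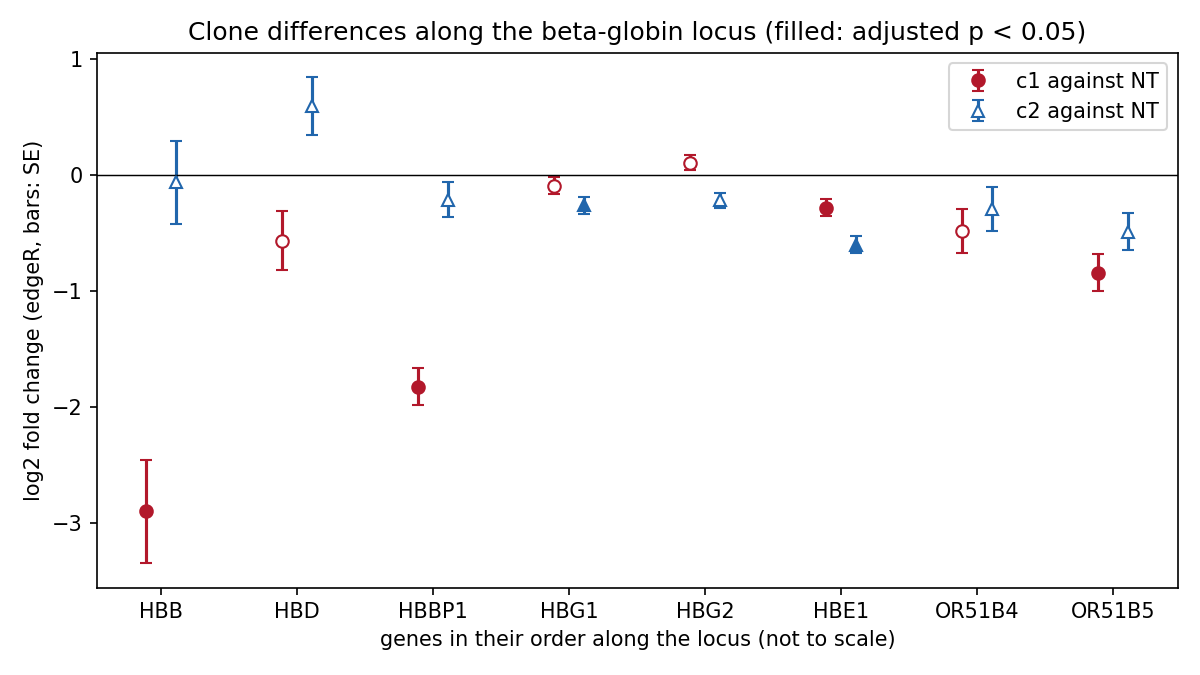
Log2 fold change (edgeR, bars are SE) of c1 against NT and c2 against NT for the members, the pseudogene HBBP1 and the olfactory receptor genes OR51B4 and OR51B5, in their order along the locus and not to scale; filled symbols passed an adjusted p of 0.05. HBB and HBBP1 are lower in c1 (-2.90 and -1.82) and near 0 in c2 (-0.06 and -0.21), while HBE1 is lower in both.

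The list of neighbours held 7 genes, of which 3 could be tested and BGLT3 and OR51B2 had no value here. HBBP1 is a transcribed pseudogene between the HBD coding exons and the gamma genes. It stood at 10.4 and 38.3 CPM in induced c1 and c2, against 15.1, 39.5, 47.1 and 43.1 CPM in uninduced c1, uninduced c2, induced NT and uninduced NT. Like HBB, it was low in both c1 libraries. Its log2 fold change was -1.82 ± 0.16 for c1 against NT (edgeR adjusted p = 0.000464) and 1.61 ± 0.16 for c2 against c1 (adjusted p = 0.000509), while c2 against NT gave -0.21 ± 0.15 (adjusted p = 0.391).

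OR51B5, an olfactory receptor gene upstream of the cluster, averaged 16.7 ± 4.11 CPM in c1 and 29.9 ± 1.38 CPM in NT (SD, n = 2 each), a log2 fold change of -0.84 ± 0.16 (edgeR adjusted p = 0.0104). That call was lost without uninduced NT (-0.80, adjusted p = 0.0690), within a range of 9.73e-05 to 0.0690. OR51B4 stood at 21.6 and 27.5 CPM in induced c1 and c2, against 31.2, 32.5, 32.3 and 41.2 CPM in uninduced c1, uninduced c2, induced NT and uninduced NT. The knockdown libraries lay below all controls for OR51B4, with a log2 fold change of -0.48 ± 0.16 (unadjusted p = 0.0232, adjusted p = 1.00). The induced library was also the lower one in NT, at 78.4% of the uninduced level (interval 71.6% to 85.8%).

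The 3 neighbours tested had a median log2 fold change of -0.57 in knockdown against controls, with 0 called, beside -0.000744 over all genes. In c1 against NT, 2 were called lower and 0 higher, where 20.7% of all genes were called. In c2 against NT 0 were called (15.1% of all genes), and in c2 against c1 HBBP1 alone was called higher (20.3% of all genes).

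Among the alpha-type globin partners, HBZ, HBA2 and HBA1, the embryonic and adult alpha-type genes, were called lower in c2 against NT and against c1, the direction that HBE1, HBG2 and HBG1 had there. AHSP, a chaperone of free alpha chains, was called lower in c1 against NT and higher in c2 against c1. AHSP stood at 1.75 and 9.75 CPM in induced c1 and c2, against 2.01, 12.6, 11.7 and 12.4 CPM in uninduced c1, uninduced c2, induced NT and uninduced NT, low in the same libraries as HBB.

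Factors that repress fetal globin, act in that repression or act against it formed a list of 27 genes, of which 25 were tested. The list mixes these roles, so its median and its counts do not measure repression. In knockdown against controls 0 were called, with a median log2 fold change of 0.02. BCL11A, the main repressor of the gamma genes in adult red cells, had between 0 and 13 estimated reads and at most 0.341 TPM. EHMT2 was listed at 0 in every library. Only transcripts matched by identifier were counted, so this 0 does not show that EHMT2 RNA was absent. MYB, a progenitor factor whose loss raises gamma globin, had the smallest p of the list. It stood at 154.1 and 153.9 CPM in induced c1 and c2, against 190.4, 181.4, 194.3 and 225.4 CPM in uninduced c1, uninduced c2, induced NT and uninduced NT, with a log2 fold change of -0.36 ± 0.10 (unadjusted p = 0.00980, adjusted p = 1.00). The knockdown libraries were below every control, and induced NT was at 86.2% of uninduced NT (interval 83.1% to 89.5%). HIC2, a repressor of BCL11A, had 0.16 ± 0.09 and SOX6, a partner of BCL11A, 1.13 ± 0.70, neither passing the test. SOX6 was highest in induced c1 (5.32 CPM) and lowest in induced c2 (0.697 CPM), and its log2 fold change was -0.98 without induced c1.

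Between clones, this list had 3 of 25 genes called higher and 0 lower in c1 against NT, a smaller share than the 20.7% of all genes. LIN28B, a fetal RNA-binding protein that favours gamma globin, had a log2 fold change of 0.39 ± 0.07 (edgeR adjusted p = 0.00998), from 159.7 and 168.7 CPM in induced and uninduced c1, against 118.7 and 132.4 CPM in induced and uninduced NT. HDAC2, a histone deacetylase, had 0.28 ± 0.06 (adjusted p = 0.0203), and TFCP2, a factor that binds the gamma promoter, had 0.37 ± 0.09 (adjusted p = 0.0254). All 3 calls were lost on leaving out induced NT (adjusted p = 0.0826 for LIN28B, 0.117 for HDAC2 and 0.0917 for TFCP2). The last 2 were also lost without uninduced NT (0.105 and 0.145) or without uninduced c1 (0.0545 and 0.0756).

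In c2 against NT, 1 of the 25 was called higher and 1 lower, a smaller share than the 15.1% of all genes. IGF2BP1, an RNA-binding protein of fetal cells, had a log2 fold change of 0.32 ± 0.06 (edgeR adjusted p = 0.0123). KLF1, an erythroid factor that activates HBB, had -0.43 ± 0.12 (adjusted p = 0.0429), from 169.6 and 160.7 CPM in induced and uninduced c2, against 235.2 and 211.0 CPM in induced and uninduced NT. Both calls were lost on leaving out either c2 library or either NT library, with adjusted p between 0.0549 and 0.113 for IGF2BP1 and between 0.0961 and 0.247 for KLF1. In c2 against c1, NFIX alone was called, where 20.3% of all genes were, and was higher by 0.35 ± 0.10 (adjusted p = 0.0475). This call was lost without the filter on low counts (0.0555) and on leaving out any library but induced c1 (0.0741 to 0.206).

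Factors known to act at the locus control region formed a list of 13, all tested. In knockdown against controls 0 were called, and the median log2 fold change was 0.04. The smallest p-values belonged to LMO2 (-0.16 ± 0.07), GFI1B (0.46 ± 0.33) and GATA2 (0.28 ± 0.23), none of which passed. In c1 against NT, GATA2, a progenitor factor, had 0.52 ± 0.10 (edgeR adjusted p = 0.0102) and ZFPM1, the cofactor of GATA1, had 0.45 ± 0.07 (adjusted p = 0.00577), while 0 were lower and 20.7% of all genes were called. Both calls were lost without uninduced NT (adjusted p = 0.0780 and 0.0569), and that of GATA2 also without induced NT (0.0733).

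In c2 against NT, 3 of the 13 were called lower and 1 higher, where 15.1% of all genes were called. LDB1, which bridges the locus control region and the globin promoters, had -0.36 ± 0.06 (edgeR adjusted p = 0.00801), MAFG, a small Maf protein, had -0.44 ± 0.08 (0.00847), and NFE2, its partner, had -0.27 ± 0.06 (0.0191). GFI1B, a repressor, had 0.95 ± 0.21 (adjusted p = 0.0227). Leaving out uninduced c2 ended all 4 calls (adjusted p of 0.0795 for LDB1, 0.0911 for MAFG, 0.176 for NFE2 and 0.0837 for GFI1B). Leaving out induced c2 or induced NT ended those of LDB1 (0.0773 and 0.0818), NFE2 (0.104 and 0.147) and GFI1B (0.133 and 0.138), and leaving out uninduced NT ended those of MAFG (0.0698) and NFE2 (0.0741). In c2 against c1, GATA2 was called lower (-0.68 ± 0.10, adjusted p = 0.00321) and 0 were higher, where 20.3% of all genes were called.

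Promoter sequences at hand came from RefSeq (GRCh38.p14, from 250 bases before the start of a gene to 50 after it). Of the 5 members only HBD had one, which was searched on both strands for 5 motifs of red cell promoters. The letters CCAAT were found once, far from the start, as was GATAA, the motif of GATA factors, which reads TTATC in the sense of the gene. The letters CACCC of the KLF1 motif were not in this window. Nor were the letters TATAA or TGACCA. Only exact letters were searched, so variant forms, such as those of a TATA box, were not looked for. The windows are those of HBD because no other member had a promoter sequence at hand, and are in the sense of the gene with the motif in capitals:
HBD chr11:5234618-5234646: gacagaacagCCAATctcagggcaagtta
HBD chr11:5234543-5234571: gaaaccctgcTTATCttaaaccaacctgc
The first base of CCAAT lay 153 bases before the start and that of TTATC 78 bases before it. Of 35097 promoters of this length, 34.6% held the letters CCAAT on either strand, 22.7% held the GATAA motif, 59.9% the CACCC motif, 20.4% the letters TATAA and 10.7% the TGACCA motif.

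Across the 6 libraries, log2 CPM of HBB and HBBP1 had a Pearson r of 0.97, HBD and HBBP1 of 0.79, and HBD and HBB of 0.76. HBE1 and HBG1 had an r of 0.87 and HBG2 and HBG1 of 0.79, while HBG2 and HBD had an r of -0.92. These values describe 3 clones sampled in 2 states each, so they mostly show how the clones differ.

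The genes most like each member over these 6 libraries were named by their r in log2 CPM. They were STX16, FASN and AMT for HBE1, AL035413.2, POLR3GL and TCN2 for HBG2, and MED25 and NEK9 for HBG1. Those most like HBD were POLR2J2, AC000120.2 and ATF7IP2, and those most like HBB were CSNK1A1P1, CD1D and ARHGAP4. Every r of these genes lay between 0.99 and 1.00, from comparisons with 1840 genes for HBB to 13280 for HBG1. FASN stood at 1290 and 1120 CPM in induced c1 and c2, against 1412, 1062, 1744 and 1596 CPM in uninduced c1, uninduced c2, induced NT and uninduced NT, the same order of libraries as for HBE1.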

How the data were processed

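Per the submitters' processing notes, transcripts had been quantified with Salmon 1.5.2 on GRCh37 (hg19). Per the file headers, the deposited tables give estimated counts of reads and TPM (scaled for transcript length and library total) for each transcript. Not given in the sources used here are the trimming, the annotation and the strand of the libraries, so reads of overlapping or antisense genes cannot be told apart. Per the labels' protocols, libraries were made from total RNA with the NEBNext Ultra RNA kit.

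Of 167268 listed transcripts, 151039 (90.3%) matched GENCODE 29 (GRCh38) by identifier, and were summed to 33367 genes, of which 21197 had a value above 0. The other transcripts held 6.23% to 6.50% of the reads of a library and were left out of library sizes and tests. Gene counts were rounded to whole numbers and filtered with filterByExpr (smallest group of 2, minimum count of 10). Tests used edgeR 4.0.16 in R 4.3.3 (TMM scaling, two-sided quasi-likelihood test, p-values adjusted over 14075 genes by Benjamini-Hochberg), with DESeq2 1.42.0 and voom in limma 3.58.1 as alternatives. Log2 CPM used a prior count of 2. Scripts were tested on simulated data. Counting intervals are exact (Clopper-Pearson, conditional on the reads of both libraries). HBG1 and HBG2 were also summed.

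The clone pairs the libraries: deviations from the means of the induced and of the uninduced libraries correlated across genes within a clone (r was 0.679 for the c1 pair, 0.741 for the c2 pair and 0.608 for the NT pair), so blocked values are given where they alter a count. Alternatives were other size factors, no filter, other tools, the clone or doxycycline as a block, and leaving out each library where the fit could still be made. Groups follow the sample titles; the files of the clone titled c2 carry another clone number in their names, and which is meant could not be settled. The members, lists and motifs were chosen with earlier results of these data known. The genes named were the 5 members, listed genes that were called or had the 3 smallest p-values of a list, and the 3 genes of highest r for each member among those with an SD of at least 0.5 times that of the member. A gene chosen by that rule is not reported here.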

Additional observations from a re-analysis of the deposited data

Results flagged for a closer look

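Among the 4 controls, 5 of 51 genes had 1 library far from the other 3, by a gap above Dixon's 95% critical value. Chance gives about 1 in 20 such groups if the libraries are exchangeable, but these controls came from different clones. AHSP was lowest in uninduced c1 at 2.01 CPM, with 11.7, 12.4 and 12.6 CPM in the others. HBZ was lowest in uninduced c2 at 851.6 CPM, with 1752, 1794 and 1846 CPM in the others, and HBA1 was lowest there at 1230.2 CPM, with 2287, 2295 and 2485 CPM in the others. The induced library of the same clone was low as well for these genes. AHSP stood at 1.75 CPM in induced c1, and HBZ and HBA1 at 1063 and 1475 CPM in induced c2. OR51B4 was highest in uninduced NT at 41.2 CPM, with 31.2, 32.3 and 32.5 CPM in the others. NR2C1 was highest in uninduced c1 at 34.7 CPM, with 33.6, 33.6 and 33.8 CPM in the others. None of the 5 members was among these genes.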

How the results depend on the processing

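Counts of called genes depended on the fit. For knockdown against controls (0 by edgeR), DESeq2 called 14, the replicate block 6 and the replicate block with a doxycycline term 19. For induced against uninduced clones (0), DESeq2 called 2 and the replicate block 141. Blocks added after seeing the data gave 69 with DESeq2, 104 with voom and 141 with the gamma genes summed. For the difference of responses (0), DESeq2 called 5 and the replicate block 19. That blocked fit is the same contrast as knockdown with the replicate block and a doxycycline term, so its 19 calls are not a second result. Leaving out 1 library gave 1034 to 2905 calls for c1 against NT (lowest without uninduced NT, then 1147 without induced NT), 759 to 2723 for c2 against NT (759 to 918 without any 1 of the NT or c2 libraries) and 1156 to 2503 for c2 against c1 (1156 and 1364 without uninduced or induced c2).

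Signs changed only for results that passed no test. In knockdown against controls, HBG1 had 0.00130 with voom and 0.12 with the replicate block, HBG2 had -0.040 with a doxycycline term, and SOX6 had -0.045 with the replicate block and a doxycycline term. Leaving out 1 library gave log2 fold changes there of -0.080 to 0.065 for HBG1, -0.11 to 0.17 for HBG2, -1.20 to 0.17 for HBD, -1.79 to 0.077 for HBBP1, -0.15 to 0.62 for GATA2 and -0.98 to 1.95 for SOX6. For induced against uninduced clones the ranges were -0.22 to 0.23 for HBE1, -0.074 to 0.29 for HBG2, -1.37 to 0.089 for HBD, -2.15 to 1.90 for HBB and -1.39 to 0.71 for HBBP1. For the difference of responses they were -0.28 to 0.17 for HBE1, -0.084 to 0.10 for HBG1, -0.14 to 0.22 for HBG2, -1.28 to 0.18 for HBD, -2.61 to 1.45 for HBB and -1.52 to 0.58 for HBBP1. HBB in c2 against NT ranged from -0.33 to 0.18. The adult share ranged from -0.0794 to 0.0273 points. Of shares by estimated reads, HBE1-202 moved to 7.64%, HBG2-201 to 97.9% and HBG2-202 to 2.10%. The causes were not tested. A group left with 1 library is assumed to vary like the others. Neither the difference of responses nor induced against uninduced clones could be fitted without an NT library. With doxycycline as a block, calls rose from 2909 to 3918 for c1 against NT, 2122 to 2964 for c2 against NT and 2851 to 3766 for c2 against c1. That block gave calls to HBD in c1 and in c2 against NT, HBG2 in c2 against NT and HBG1 in c2 against c1. No block changed another call of the members, or of the other genes in the comparisons they were named for. Of 160 member values with 1 library left out, 120 kept their sign and their side of the threshold, as did 180 of 191 under the other settings.

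With 5 to 47 reads a library, the intervals of the HBB response included the HBD response in c1 and in c2. Shared sequence limits the split of HBG1 from HBG2. With 1 library for each clone and state, clone, culture and library cannot be told apart.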
